A study of Mus musculus with 6 samples.

Results

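In all, 10 heat shock protein genes were described in mesenchymal progenitors of overloaded and sham mouse muscle. They were taken by symbol from the 54100 gene rows of the deposited count table, and each of the 10 symbols had 1 row. By the compartment of their proteins and by inducibility, 6 were cytosolic and stress-inducible (Hspa1a, Hspa1b, Dnajb1, Hsph1, Hspb1 and Hsp90aa1). A further 2 were cytosolic and constitutive (Hspa8 and Hsp90ab1) and 2 were mitochondrial (Hspd1 and Hspe1). The cells were Pdgfra+ fibro-adipogenic progenitors (FAPs) from the plantaris, a calf muscle, of C57BL/6 mice, with 3 libraries from overloaded muscle and 3 from sham muscle. Per the labels, 1000 cells were sorted into each tube, and the libraries followed a CEL-Seq2 type of protocol, which tags transcripts near their 3' end. The labels do not state how or for how long the muscle was overloaded, the age of the mice, or whether each library is a separate animal. The p-values therefore rest on library-to-library spread, part of which may be technical.

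Heat shock proteins are chaperones that keep other proteins folded. The transcription factor HSF1 raises the stress-inducible genes when unfolded proteins build up, for example in heat, whereas the constitutive genes serve newly made proteins in unstressed cells. HSP70 proteins (Hspa1a, Hspa1b, Hspa8) bind exposed hydrophobic stretches in a cycle driven by ATP. J-domain proteins such as Dnajb1 start that cycle, and HSP110 proteins such as Hsph1 release the nucleotide. HSP90 proteins (Hsp90aa1, Hsp90ab1) finish the folding of kinases and receptors, and the small heat shock protein Hspb1 holds unfolding proteins and acts on actin filaments. Hspd1 (HSP60) and its lid Hspe1 (HSP10) form the folding chamber of the mitochondrial matrix.

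HSF1 binds alternating GAA and TTC units spaced by 2 bases, and the promoters of the members were searched for such pairs to show where the members carry such letters. RefSeq promoter windows on GRCm38.p6, from 250 bases before to 50 bases after an annotated start, were found for 7 of the 10 members (10 windows). Hspa8, Hsp90aa1 and Hsp90ab1 had no entry. The letters GAANNTTC stood in 7.86% and TTCNNGAA in 8.52% of all 32851 windows of that length, and either stood in 15.1%. Each of these motifs is its own reverse complement, so both strands give the same matches, and neighbouring matches can overlap. A run of 3 units (either motif with a further unit 2 bases on) stood in 0.603% of windows. Either motif was found for 6 of the 7 members and a run of 3 units for 3 of them, Hsph1, Hspd1 and Hspe1. A match is a description of these letters, not a binding site.

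The bases upstream of the start are shown for the near-identical pair Hspa1a and Hspa1b (chr17:34972157-34972406 and chr17:34959239-34959488, minus strand, GRCm38.p6), with matches in capitals. Over these 250 bases the genes differed at 3 positions, and each had 1 match, which began at position -104.
Hspa1a: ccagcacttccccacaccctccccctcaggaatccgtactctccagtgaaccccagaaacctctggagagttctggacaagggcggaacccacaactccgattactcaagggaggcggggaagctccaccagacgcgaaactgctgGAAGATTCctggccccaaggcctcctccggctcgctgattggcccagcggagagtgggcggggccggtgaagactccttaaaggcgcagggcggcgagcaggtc
Hspa1b: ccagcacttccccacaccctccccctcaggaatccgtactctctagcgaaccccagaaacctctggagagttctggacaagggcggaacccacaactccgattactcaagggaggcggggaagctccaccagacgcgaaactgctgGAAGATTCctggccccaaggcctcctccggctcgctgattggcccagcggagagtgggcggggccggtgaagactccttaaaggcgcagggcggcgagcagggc

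Hspd1 and Hspe1 lie head to head on chromosome 1, on opposite strands. The Hspd1 window at the more downstream of its annotated starts shared 285 bases with the Hspe1 window. The Hspd1 window at the other start shared 4 bases with it and held neither motif. The stretch that holds the run of units is shown as read from each gene (chr1:55088047-55088086, minus strand, for Hspd1 and chr1:55088049-55088088, plus strand, for Hspe1, GRCm38.p6), with matches in capitals. The run began at position -144 from the more downstream of the annotated starts of Hspd1 and at position -89 of Hspe1.
Hspd1: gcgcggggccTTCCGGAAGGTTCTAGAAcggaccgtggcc
Hspe1: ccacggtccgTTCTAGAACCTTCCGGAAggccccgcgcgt

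For comparison, the stretches of Hspb1 (chr5:135887792-135887831, plus strand) and Hsph1 (chr5:149636340-149636379, minus strand) held separate matches, again in capitals. The run of 3 units of Hsph1 lay elsewhere, after its annotated starts, at position 37 of one and 16 of the other. In the 2 windows of Dnajb1 neither motif was found.
Hspb1: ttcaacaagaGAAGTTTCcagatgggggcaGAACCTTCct
Hsph1: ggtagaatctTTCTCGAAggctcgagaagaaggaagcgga

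Total counts were 850857 to 1124210 in overloaded and 500402 to 754456 in sham libraries. All 10 members had enough counts to be tested, with 133 to 8062 counts over the overloaded libraries and 114 to 5911 over the sham libraries. Together they took 0.627% ± 0.0425 of all counts in overloaded and 0.717% ± 0.0627 in sham libraries (SD, n = 3 each). Reads in olfactory and vomeronasal receptor genes, which serve as a measure of background, stood at 231.8 to 1092 CPM of the library total in overloaded and at 780.7 to 1819 CPM in sham libraries. The 9 FAP markers were all detected, with Pdgfra at 594 ± 172 CPM in overloaded and 857 ± 143 CPM in sham libraries. CPM elsewhere are relative to the reads in tested genes, with TMM scaling between libraries. The FAP markers summed to 31613 to 37504 CPM in overloaded and 42075 to 56548 CPM in sham libraries. They did not move together. Of the 9, 1 was called higher (Col1a1, log2 fold change 1.42), 5 lower (Dcn at -1.31 among them) and 3 were not called, Pdgfra among them. Of all genes tested 15% were higher and 14.3% lower. Markers of other cells were scarcer. The 6 endothelial markers, none of them at 0, summed to 33.5 to 71.5 CPM in overloaded and 122 to 216 CPM in sham libraries. Of these, 2 could be tested. Tek, with 74 counts in overloaded and 233 counts in sham libraries, was called lower (log2 fold change -2.13), and Flt1, with 43 counts in overloaded and 44 counts in sham libraries, was not (edgeR adjusted p = 0.778). Pecam1 had 10 counts in overloaded and 13 in sham libraries, Cdh5 7 in overloaded and 6 in sham libraries, Kdr 12 in overloaded and 9 in sham libraries, and Emcn 6 in overloaded and 4 in sham libraries. Their part in the results was not tested. Summed CPM were 0 to 18.8 in overloaded and 9.42 to 18.7 in sham libraries for 8 leukocyte markers (Lyz2 and Adgre1 at 0 counts). They were 1.16 to 11.3 in overloaded and 4.15 to 8.07 in sham libraries for 6 satellite cell and myoblast markers (Myod1 at 0). The 5 pericyte and smooth muscle markers summed to 91.4 to 131 CPM in overloaded and 89.2 to 158 CPM in sham libraries, and 4 tenocyte markers to 29.8 to 55.5 CPM in overloaded and 25.6 to 29.04 CPM in sham libraries.

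The members were compared by compartment and, within the cytosol, by whether they are stress-inducible. Of the 6 stress-inducible cytosolic genes, 5 were lower in overloaded FAPs and 1, Hspa1b, was not called, while both mitochondrial genes were higher and neither constitutive gene was called. The 5 include Hspa1a, whose split from its near-identical copy Hspa1b is uncertain. Summed to 1 row, a step added after seeing the data, these copies were not called (log2 fold change -0.17, edgeR adjusted p = 0.538). The call was an adjusted p under 0.05 by edgeR's quasi-likelihood test, with Benjamini-Hochberg adjustment over 7207 genes. By that rule 15% of all genes tested were higher and 14.3% lower, 29.3% in all, against 2 and 5 of the 10 members. The members called numbered 4 without overloaded replicate 1, 5 without overloaded replicate 2, 4 without sham replicate 2, 5 without sham replicate 3 and 7 without either of the other two. Overloaded and sham values did not overlap for 7 of the 10 members, against 41.5% of the genes tested. The median log2 fold change was -0.80 for the inducible, -0.075 for the constitutive and 1.16 for the mitochondrial members, and -0.025 over all genes tested. In bulk samples such as these, fewer cells of a kind and less RNA per cell cannot be told apart.

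**Figure D1:**
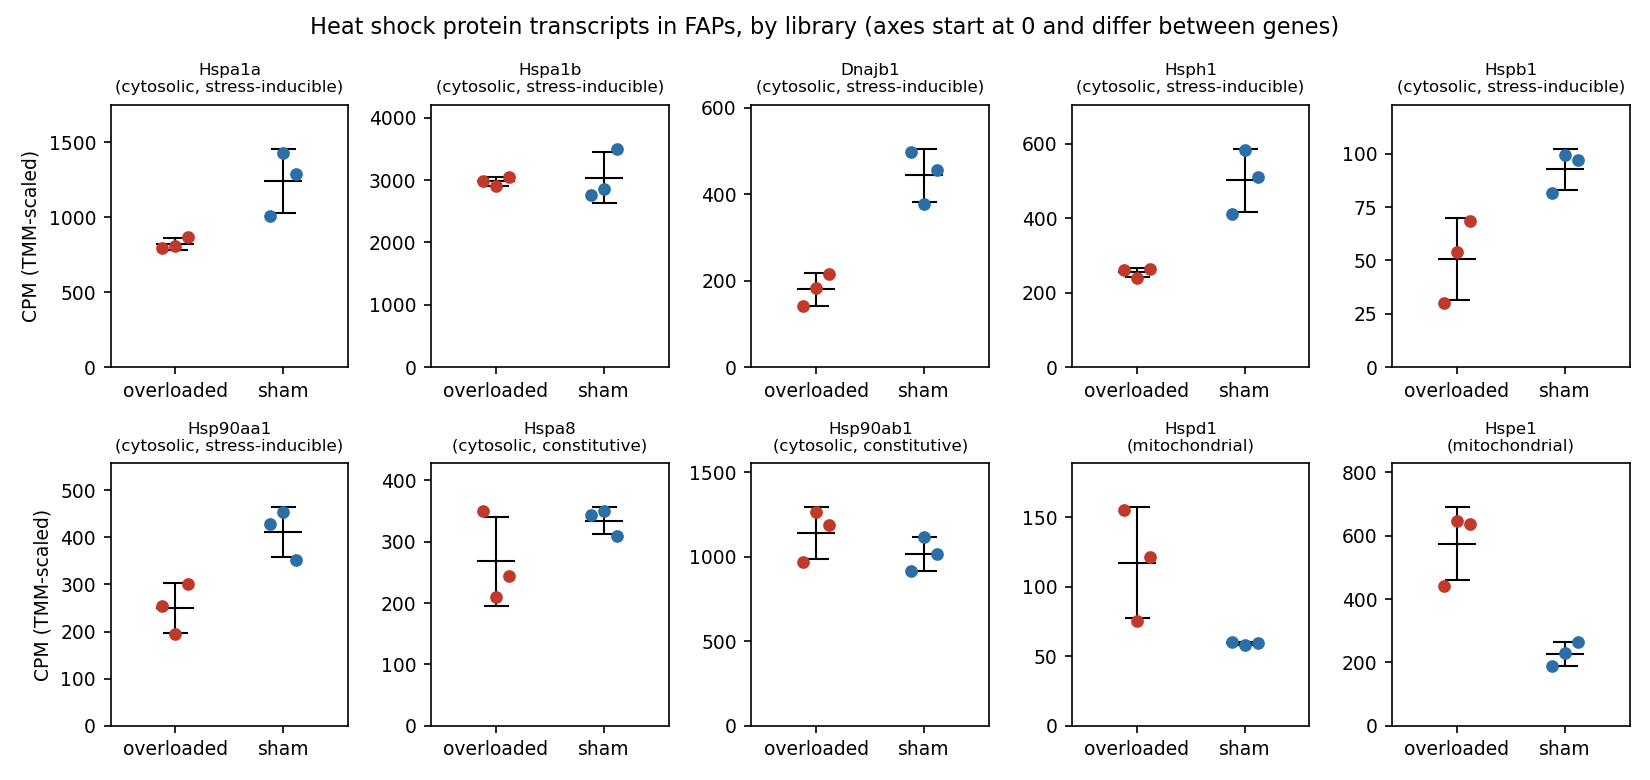
CPM (vertical axis, TMM-scaled, from 0) of each of the 10 members in the 3 overloaded (left, red) and the 3 sham libraries (right, blue), with the mean and SD in black. Overloaded points lie below all sham points for Hspa1a, Dnajb1, Hsph1, Hspb1 and Hsp90aa1 and above them for Hspd1 and Hspe1, and the groups overlap for Hspa1b, Hspa8 and Hsp90ab1.

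Dnajb1, the J-domain partner that hands unfolded proteins to HSP70 (ENSMUSG00000005483, chromosome 8, 83608193 to 83612653, plus strand, GRCm38), showed the widest difference among the inducible members. It stood at 141, 183 and 216 CPM in overloaded libraries 1 to 3, against 498, 377 and 457 CPM in sham libraries 1 to 3. Every overloaded library was below every sham library. On the log2 scale the difference was -1.31 with a standard error (SE) of 0.22 (edgeR adjusted p = 2.66e-05), so that the level fell by 59.6%. It was called under all 16 alternative settings tried, with log2 fold changes from -1.44 to -1.13.

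Hsph1, the HSP110 protein that recharges HSP70 with ATP (ENSMUSG00000029657, chromosome 5, 149614287 to 149636376, minus strand), had 262, 240 and 263 CPM in overloaded libraries and 412, 583 and 510 CPM in sham libraries. The overloaded libraries lay close together and the sham libraries were all higher. Its log2 fold change was -0.98 (SE 0.20, edgeR adjusted p = 0.000493). Like Dnajb1, it was called under each of the 16 settings, with log2 fold changes from -1.07 to -0.85.

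Hsp90aa1, the inducible HSP90 (ENSMUSG00000021270, chromosome 12, 110690605 to 110702728, minus strand), had 254, 194 and 301 CPM in overloaded libraries and 428, 454 and 353 CPM in sham libraries. The groups did not overlap, with overloaded library 3 nearest to sham library 3. The log2 fold change was -0.72 (SE 0.21, edgeR adjusted p = 0.0104). The call was lost without overloaded replicate 2 (edgeR adjusted p = 0.0753) and without sham replicate 2 (0.0554), with no count filter (0.0645) and with the background reads as a covariate (0.0589), where the log2 fold change was -0.95, and over the 16 settings the adjusted p ranged from 0.00596 to 0.0753.

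Hspb1, the small heat shock protein HSP27 of human nomenclature (ENSMUSG00000004951, chromosome 5, 135887919 to 135889563, plus strand), was the member with the fewest counts in overloaded libraries. It had 29.8, 53.9 and 68.2 CPM there, against 81.6, 99.6 and 96.9 CPM in sham libraries. Overloaded library 1 stood lowest and the groups did not overlap. For Hspb1 the log2 fold change was -0.88 (SE 0.28, edgeR adjusted p = 0.0192). Without overloaded replicate 1 it was -0.56 and not called (edgeR adjusted p = 0.149), and the call was also lost without sham replicate 2 (0.0663), without sham replicate 3 (0.0738), with no count filter (0.0730) and with the background covariate (0.165, where it was -0.90 on the log2 scale), with a range of 0.00812 to 0.165 over the 16 settings. Muscle fibres carry much small heat shock protein, and 12 myofibre markers summed to 39.3 to 61.4 CPM in overloaded and 65.9 to 135 CPM in sham libraries. Of these, 10 had under 15 counts over all libraries, Tnnc2 among them at 0, and 2 could be tested. Ttn, with 50 counts in overloaded and 82 in sham libraries, was called lower (log2 fold change -1.23, edgeR adjusted p = 0.0231), though the groups overlapped. Tnnt3, with 65 counts in overloaded and 64 in sham libraries, was not called (edgeR adjusted p = 0.383). The part of muscle fibre transcripts in the result was not tested.

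The inducible HSP70 genes Hspa1a (ENSMUSG00000091971, chromosome 17, 34969190 to 34972156, minus strand) and Hspa1b (ENSMUSG00000090877, chromosome 17, 34956436 to 34959238, minus strand) are adjacent copies with 1 exon each. Hspa1a had 792, 806 and 870 CPM in overloaded libraries and 1009, 1431 and 1288 CPM in sham libraries. The overloaded libraries were close together and below all 3 sham libraries. For Hspa1a the log2 fold change was -0.59 (SE 0.20, edgeR adjusted p = 0.0218). Hspa1b had 2990, 2906 and 3049 CPM in overloaded libraries and 2765, 2852 and 3505 CPM in sham libraries. Its overloaded values lay within the range of the sham values. Hspa1b had a log2 fold change of -0.028 (edgeR adjusted p = 0.934) with a 95% interval of -0.41 to 0.36.

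The coding sequences of the pair agree at 1916 of 1926 aligned positions (99.5%) in GENCODE M21, but their 3' UTRs at 451 of 877 (51.4%). Most reads from the coding part can therefore not be assigned to one copy, unlike reads from the part of the 3' UTR that differs, and the labels do not say how reads with several matches were counted. The split between the copies is uncertain to that extent. With the counts of both summed to 1 row, a step added after seeing the data, the log2 fold change was -0.17 (SE 0.19, edgeR adjusted p = 0.538). The ratio of Hspa1a to Hspa1b was 0.265, 0.278 and 0.285 in overloaded libraries and 0.365, 0.502 and 0.367 in sham libraries, without overlap. This ratio, also chosen after seeing the data, differed by -0.56 on the log2 scale (overloaded minus sham, exact two-sided permutation p = 0.1, the smallest that 3 against 3 can give). The call of Hspa1a alone was lost without overloaded replicate 1 (edgeR adjusted p = 0.0702), overloaded replicate 2 (0.0516), sham replicate 2 (0.138) or sham replicate 3 (0.0939), with no count filter (0.150) and with the background covariate (0.158, where it was -0.62 on the log2 scale), within a range of 0.0107 to 0.158 over the 16 settings.

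The constitutive members were not called. Hspa8, the housekeeping HSP70 (HSC70; ENSMUSG00000015656, chromosome 9, 40800984 to 40810087, plus strand), had 350, 209 and 244 CPM in overloaded libraries and 344, 351 and 309 CPM in sham libraries. Overloaded library 1 lay among the sham values and the other two lay below them. The log2 fold change was -0.32 (edgeR adjusted p = 0.290) with a 95% interval of -0.75 to 0.12. Hsp90ab1, the constitutive HSP90 (ENSMUSG00000023944, chromosome 17, 45567775 to 45573271, minus strand), had 967, 1263 and 1187 CPM in overloaded libraries and 916, 1114 and 1016 CPM in sham libraries. The groups overlapped through overloaded library 1. For Hsp90ab1 the log2 fold change was 0.17 (edgeR adjusted p = 0.566) with a 95% interval of -0.23 to 0.56.

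Both mitochondrial members were higher. Hspe1, the lid of the chaperonin (ENSMUSG00000073676, chromosome 1, 55088132 to 55091307, plus strand), had 441, 647 and 636 CPM in overloaded libraries and 189, 228 and 265 CPM in sham libraries. Every overloaded library was above every sham library, overloaded library 1 least. For Hspe1 the log2 fold change was 1.34 (SE 0.22, edgeR adjusted p = 1.93e-05), a level 2.52-fold higher, and Hspe1 was called under all 16 settings with log2 fold changes from 1.22 to 1.52. Hspd1, the chaperonin itself (ENSMUSG00000025980, chromosome 1, 55077835 to 55088243, minus strand), had 155, 75.2 and 121 CPM in overloaded libraries and 60.1, 58.1 and 59.2 CPM in sham libraries. The sham libraries were nearly equal, and the overloaded libraries were all above them but spread widely. Its log2 fold change was 0.99 (SE 0.27, edgeR adjusted p = 0.0052). Without overloaded replicate 1 it was 0.76 and not called (edgeR adjusted p = 0.0546), and with the background covariate it was 0.45 (0.486), within a range of 0.00052 to 0.486 over the 16 settings. Exons of Hspd1 and Hspe1 overlap at their 5' ends on opposite strands, and without a stated strand setting reads there cannot be told apart. Pseudogene rows named after Hspd1 or Hspe1 held 15 counts or fewer each over the 6 libraries, and pseudogenes under other names were not searched for.

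**Figure D2:**
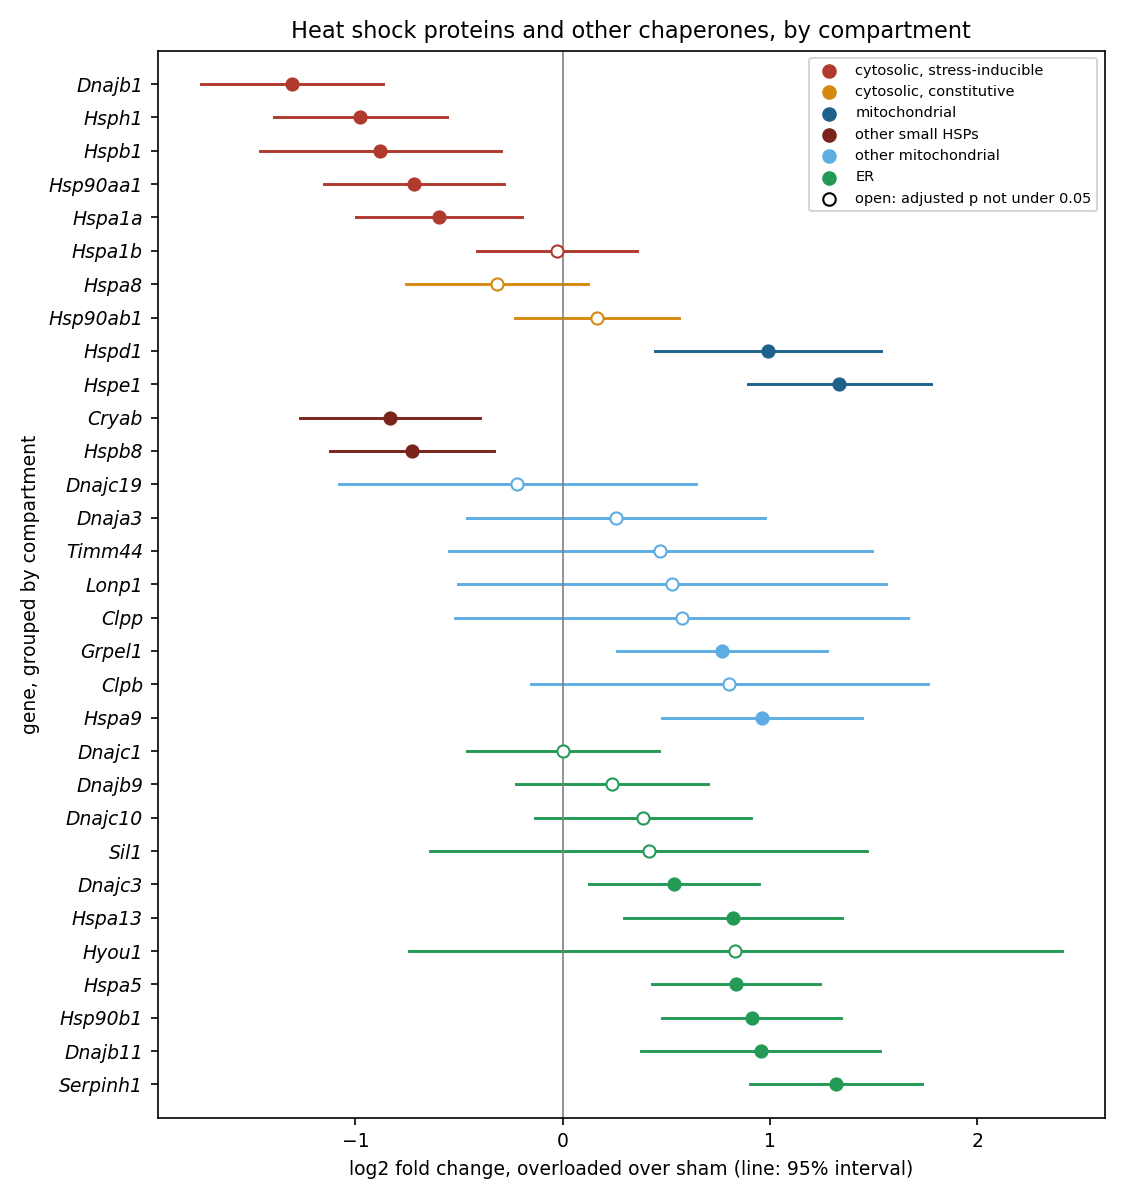
Log2 fold change of overloaded over sham FAPs (horizontal axis) with its 95% interval for the 10 members, grouped by compartment, and below them for the tested genes of the other small heat shock proteins, of other mitochondrial chaperones and of chaperones of the endoplasmic reticulum (ER). Filled points passed an adjusted p under 0.05: the called cytosolic genes shown lie left of 0, from -1.31 to -0.59, and the called mitochondrial and ER genes lie right of it. The other cytosolic lists are not shown and had called genes on both sides of 0. Other J-domain proteins had 2 higher and 1 lower, and other HSP70 and HSP110 genes 1 lower. The HSP70 and the HSP90 co-chaperones had 2 higher each and 0 lower.

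Ratios of related members within a library do not depend on scaling between libraries, and 3 of them were compared. Hsp90aa1 over Hsp90ab1, the inducible over the constitutive HSP90, was 0.263, 0.154 and 0.253 in overloaded libraries and 0.467, 0.408 and 0.347 in sham libraries. All overloaded ratios were lower, and the difference in log2 ratio was -0.89 (overloaded minus sham, exact two-sided permutation p = 0.1, the smallest possible, and 0.3 adjusted over the 3 ratios). Hspa1a plus Hspa1b over Hspa8 was 10.8, 17.7 and 16.1 in overloaded libraries and 10.98, 12.2 and 15.5 in sham libraries. These overlapped, with a difference of 0.19 in log2 ratio (exact permutation p = 0.5, adjusted 0.5). Hspd1 over Hspe1 was 0.351, 0.116 and 0.191 in overloaded libraries, against 0.318, 0.255 and 0.223 in sham libraries. Here too the groups overlapped, since overloaded library 1 had the highest and overloaded library 2 the lowest ratio of all 6 (difference -0.41 in log2 ratio, exact permutation p = 0.5, adjusted 0.5). The ratios are of counts per gene and not per length, so only their change between libraries can be read.

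**Figure D3:**
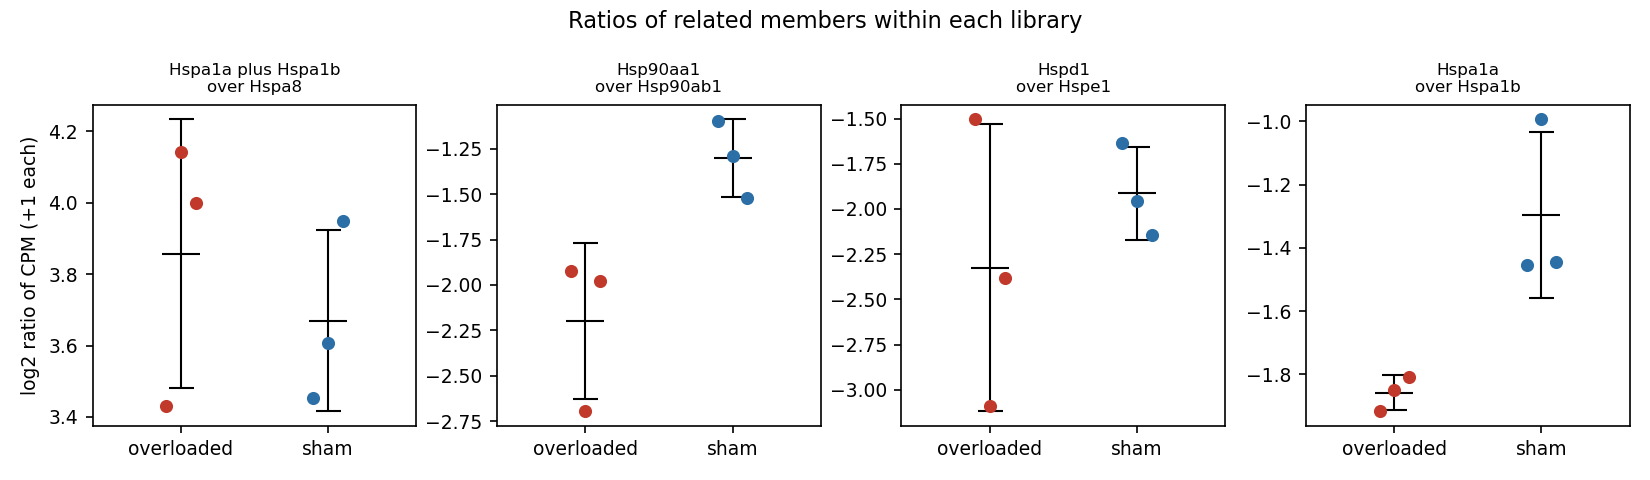
Log2 ratio of CPM (1 CPM added to each side) for 4 pairs of related members in the 3 overloaded (left, red) and the 3 sham libraries (right, blue), with mean and SD in black, on axes that do not start at 0. The overloaded points lie below the sham points for Hsp90aa1 over Hsp90ab1 and for Hspa1a over Hspa1b, and overlap with them for the other two.

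Members also differed in how far libraries of one group spread. The coefficient of variation ran from 2.42% (Hspa1b) to 38.3% (Hspb1) in overloaded and from 1.75% (Hspd1) to 17.3% (Hspa1a) in sham libraries. Overloaded library 1 held the lowest value of its group for Hspa1a, Dnajb1, Hspb1, Hsp90ab1 and Hspe1, and the highest for Hspa8 and Hspd1. No single overloaded library was thus low or high for all members.

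The genes that regulate and assist these chaperones were taken next. Hsf1, the transcription factor that drives the stress-inducible genes, stood at 25.01, 43.9 and 37.0 CPM in overloaded libraries and 21.5, 14.5 and 24.2 CPM in sham libraries (log2 fold change 0.77, SE 0.37, edgeR adjusted p = 0.122). Hsf2, a related factor, was at 21.0 ± 3.21 CPM in overloaded and 33.4 ± 10.5 CPM in sham libraries (log2 fold change -0.65, SE 0.37, edgeR adjusted p = 0.200). Neither passed the test, and of the 4 HSF regulators listed 3 could be tested and 0 were called, beside 29.3% of all genes tested. Their fold changes do not measure HSF1 protein activity.

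Among the other small heat shock proteins, 2 of 7 had enough counts to test and both fell, beside 14.3% lower of all genes tested. Cryab, alpha-B crystallin, had 141, 186 and 174 CPM in overloaded libraries and 305, 255 and 328 CPM in sham libraries (log2 fold change -0.83, SE 0.21, edgeR adjusted p = 0.00328). Hspb8, which works with Bag3 in chaperone-assisted autophagy, had 389, 411 and 371 CPM in overloaded libraries and 627, 645 and 665 CPM in sham libraries (log2 fold change -0.73, SE 0.19, edgeR adjusted p = 0.00472). Values of both genes lay apart between the groups in every library. With the background covariate neither was called, while the log2 fold changes were -0.81 for Cryab (SE 0.30) and -0.67 for Hspb8 (SE 0.28). As for Hspb1, the part of muscle fibre transcripts was not tested.

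Of 7 other cytosolic HSP70 and HSP110 genes, 5 were tested and 1 fell, Hspa12a, a distant HSP70 relative, at 11.8 ± 3.199 CPM in overloaded and 33.1 ± 10.3 CPM in sham libraries (log2 fold change -1.45, SE 0.42, edgeR adjusted p = 0.00881). Among 10 J-domain proteins of the cytosol tested (of 15), 2 were higher, 1 was lower and 7 were not called, shares near the 15% higher and 14.3% lower of all genes tested. Dnajb4, a close relative of Dnajb1, fell (log2 fold change -0.71, SE 0.22), at 133 ± 15.5 CPM in overloaded and 218 ± 9.51 CPM in sham libraries. Dnajc2, which acts at the ribosome, was at 47.9 ± 7.69 CPM in overloaded and 21.9 ± 4.90 CPM in sham libraries (edgeR adjusted p = 0.0111), and Dnaja2 had a log2 fold change of 0.65 (SE 0.23). Hspa12a was not called without overloaded replicate 3, without sham replicate 2 or with the background covariate, where its log2 fold change was -0.89 (SE 0.60). Of the J-domain genes 0 were higher and 0 lower without overloaded replicate 3 and likewise with the background covariate, where the log2 fold changes were -0.58 for Dnajb4, 0.99 for Dnajc2 and 0.40 for Dnaja2, and 1 was higher without overloaded replicate 1, sham replicate 2 or sham replicate 3.

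Few co-chaperones were called. The shares called higher, 2 of 7 for HSP70 and 2 of 12 for HSP90, stand beside 15% of all genes tested. As reported, 0 of either list were lower, and 1 HSP90 co-chaperone was called lower with scaling by library size alone and with a minimum count of 30. Bag1, a nucleotide exchange factor of HSP70, stood at 144 ± 36.0 CPM in overloaded and 77.1 ± 20.8 CPM in sham libraries (log2 fold change 0.87, SE 0.26), and Stip1, which links HSP70 to HSP90, had a log2 fold change of 0.64 (SE 0.24). These were the 2 called of 7 HSP70 co-chaperones tested (of 9 listed). Of 12 HSP90 co-chaperones tested (of 16), 2 rose and 10 were not called. The 2 were Ptges3, the p23 protein that stabilises the closed form of HSP90, at 225 ± 38.2 CPM in overloaded and 137 ± 10.01 CPM in sham libraries (log2 fold change 0.72, SE 0.22), and Cacybp (0.77, SE 0.25). Stip1 was called in 6 of the 16 settings. A single HSP70 co-chaperone was called without overloaded replicate 3, without any 1 sham replicate, and with library-size or upper-quartile scaling, DESeq2, no count filter or thinning. With the background covariate 0 were, at log2 fold changes of 0.96 for Bag1 and 0.94 for Stip1 (SE 0.34 and 0.33). Of the HSP90 co-chaperones 1 was called higher without overloaded replicate 3 or sham replicate 2, with thinning, and with the background covariate (Ptges3 at 0.96 and Cacybp, not called, at 0.36), and 0 without sham replicate 3.

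Other mitochondrial chaperones and proteases had 2 higher, 0 lower and 6 not called among 8 tested of 14, with a median log2 fold change of 0.55. With so few genes, 2 of 8 is not far from the 15% called higher of all genes tested, of which 14.3% were lower. The median over all genes tested was -0.025. Hspa9, the mitochondrial HSP70 (mortalin), had 170, 138 and 148 CPM in overloaded libraries and 70.2, 87.1 and 78.0 CPM in sham libraries. All overloaded libraries were higher, and the log2 fold change was 0.96 (SE 0.24, edgeR adjusted p = 0.00234). Grpel1, its nucleotide exchange factor, was at 107 ± 15.8 CPM in overloaded and 62.5 ± 4.72 CPM in sham libraries (log2 fold change 0.77, SE 0.25, edgeR adjusted p = 0.0192). Mitochondrially encoded genes took 7.71% to 11.07% of counts in overloaded and 8.72% to 11.01% in sham libraries, and these ranges overlapped. With the background covariate neither was called, at log2 fold changes of 0.87 for Hspa9 (SE 0.33) and 0.99 for Grpel1 (SE 0.34). Grpel1 was not called without overloaded replicate 2 (edgeR adjusted p = 0.0737), sham replicate 2 (0.0533) or sham replicate 3 (0.0721), in a range of 0.0161 to 0.134 over the 16 settings.

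Chaperones of the ER were compared as a further compartment. Of 11, all tested, 6 rose, 0 fell and 5 were not called, with a median log2 fold change of 0.82. Over all genes tested 15% were higher and 14.3% lower, with a median of -0.025. Hspa5 (BiP), the HSP70 of the ER, was at 4412 ± 957 CPM in overloaded and 2474 ± 214 CPM in sham libraries (log2 fold change 0.83, SE 0.20, edgeR adjusted p = 0.00181), and Hsp90b1, its HSP90, was at 809 ± 194 CPM in overloaded and 430 ± 67.2 CPM in sham libraries (log2 fold change 0.91, SE 0.21). Serpinh1 (HSP47), a chaperone of procollagen, had 1386, 993 and 1394 CPM in overloaded libraries and 560, 446 and 505 CPM in sham libraries (log2 fold change 1.32, SE 0.20). It was called in each of the 16 settings. Dnajb11 rose by 0.96 (SE 0.28). Without sham replicate 3 the list had 3 higher genes, and with the background covariate 2, where the log2 fold changes were 0.52 for Hspa5, 0.59 for Hsp90b1 and 0.89 for Dnajb11, none of them called.

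**Figure D4:**
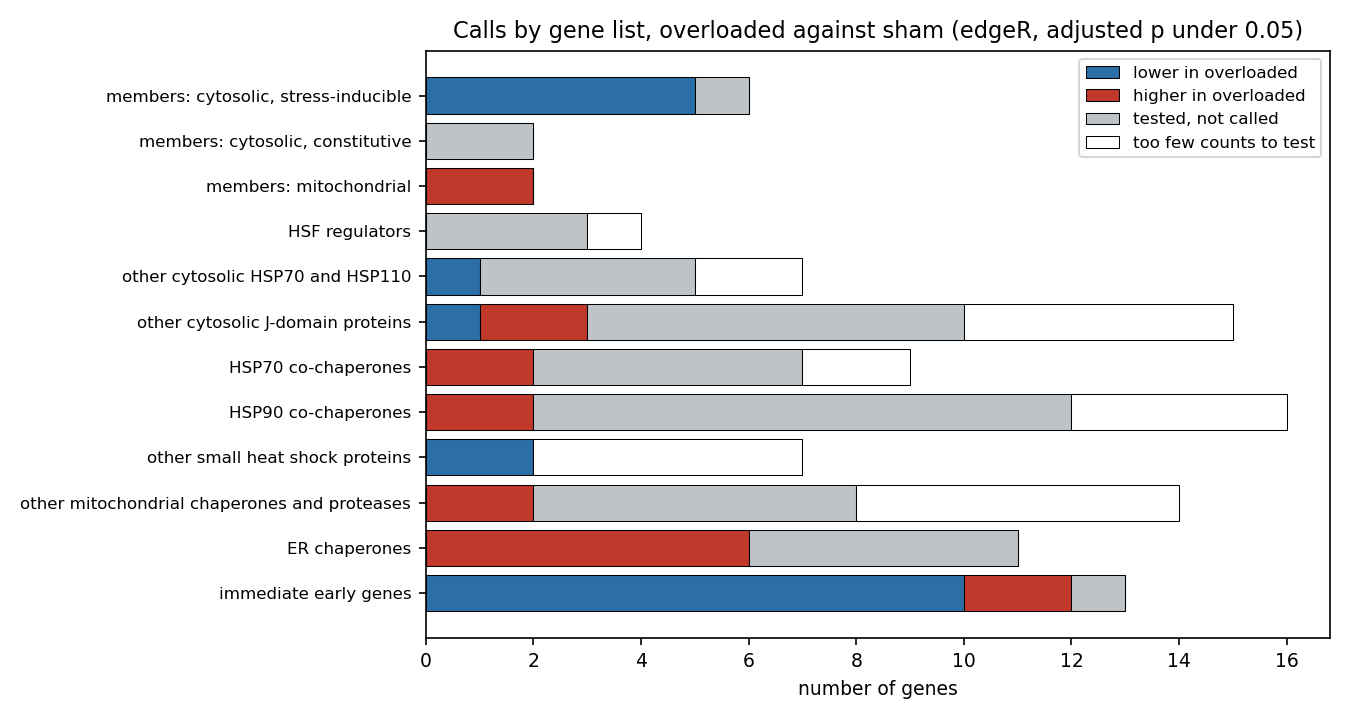
Number of genes (horizontal axis) called lower or higher in overloaded FAPs, tested but not called, or with too few counts to test, for the members by compartment and for the other lists. The 6 inducible members hold 5 lower genes and the 11 ER chaperones 6 higher ones, while the immediate early genes hold 10 lower and 2 higher. Hspa1a (lower) and Hspa1b (not called) are counted as separate genes, although the split of their counts is uncertain. Of all genes tested 15% were higher and 14.3% lower.

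Immediate early genes, which cells switch on within minutes of many stimuli including the handling that frees them from tissue, moved beside the inducible members. Of 13 tested, 10 fell, 2 rose (Ier3 and, picked after its values were seen, Nr4a1) and 1 was not called. Of all genes tested 14.3% were lower and 15% higher. The call of Nr4a1 was close to the threshold (edgeR adjusted p = 0.0472), and its overloaded and sham values overlapped. Their summed level was 12268 to 13657 CPM in overloaded and 25002 to 25990 CPM in sham libraries, without overlap. Fosb, a subunit of AP-1, was at 290 ± 42.2 CPM in overloaded and 1103 ± 59.8 CPM in sham libraries (log2 fold change -1.93, SE 0.20). Atf3, a stress-responsive transcription factor, had a log2 fold change of -2.01 (SE 0.21), Egr1 of -1.70 (SE 0.19) and Ier3 of 1.76 (SE 0.20). Without overloaded replicate 1 or 3, or sham replicate 2 or 3, 1 of the genes was called higher. That was also so with library-size or upper-quartile scaling, DESeq2, thinning and the background covariate, and with the covariate 8 were called lower. Their part in the lower level of the inducible heat shock genes was not tested.

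Genes with a level pattern most like the inducible members were sought over the 6 libraries, by the root mean square difference between log2(CPM + 1) values centred on each gene's mean and the average of the 6 inducible members. The 5 nearest, leaving out members and predicted gene models, were Lrp1, Tssc4, Hip1, Ep400 and Gpd1l, at distances of 0.0757 to 0.105. Lrp1, an endocytic receptor, was at 305 ± 23.8 CPM in overloaded and 492 ± 42.3 CPM in sham libraries (log2 fold change -0.69, SE 0.20). The log2 fold changes of the others were -0.86 for Tssc4, -0.86 for Hip1, -0.83 for Ep400 and -0.87 for Gpd1l. Since the genes were chosen for their likeness to a profile that is lower in overloaded libraries, their lower levels restate the choice and are given as a description, with no test.

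Among the tested genes with a promoter window, those holding a run of 3 HSF units were called in both directions. Leaving out the members, 33 such genes were tested, of which 6 (18.2%) were higher and 4 (12.1%) lower, with a median log2 fold change of -0.051. Over the 5645 tested genes with a window, 15.1% were higher and 13.9% lower, with a median of -0.011. This list was drawn up after the data were seen and was given no test. Among the members with such a run, Hspd1 and Hspe1 were higher in overloaded FAPs and Hsph1 was lower.

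**Figure D5:**
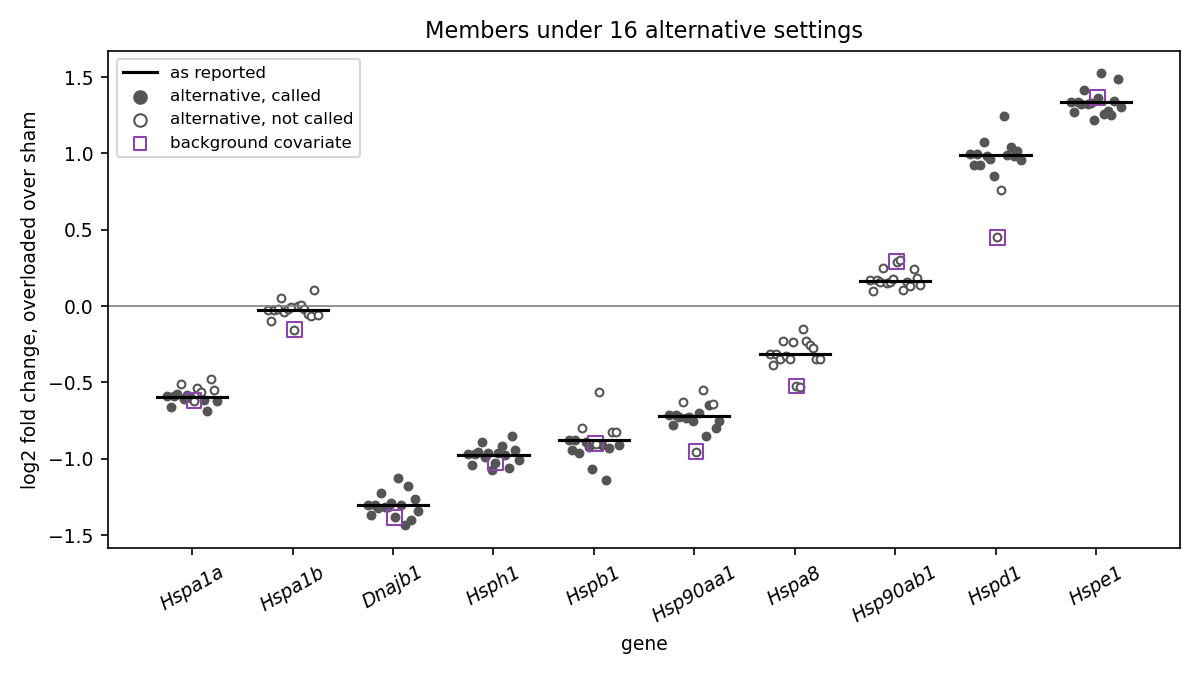
Log2 fold change of overloaded over sham FAPs (vertical axis) for the 10 members as reported (black bar) and under 16 other settings (points, filled where the adjusted p was under 0.05, with the background covariate in a purple square). Dnajb1, Hsph1 and Hspe1 stay filled throughout, Hspd1 drops to 0.45 with the background covariate, and Hspa1b scatters around 0.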

How the data were processed

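Gene-level counts of 6 libraries (54100 genes) were deposited by the authors in a single table of unnormalised whole numbers. Trim Galore 0.6.6, HISAT2 2.2.1, featureCounts 2.0.1, DESeq2 1.28.1 and GRCm38 are named in the submitters' processing notes. Nothing states the settings for strand, multi-mapping or molecular identifiers. Uncollapsed reads would not be independent molecules.

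Genes were kept with filterByExpr (minimum count 10, minimum total 15), which left 7207. Overloaded and sham counts entered edgeR 4.0.16 under R 4.3.3 (TMM, the trimmed mean of M-values, for scaling, quasi-likelihood F test with robust dispersions, Benjamini-Hochberg adjustment, threshold 0.05), and the SE is the log2 fold change divided by the square root of F. The biological coefficient of variation was 21.2%. The fit was tested on simulated data with 200 changed genes. Of these, 2.5% were recovered at a 1.5-fold change, 39.5% at 2-fold and 94.5% at 4-fold. A gene that was not called may therefore still differ. In the real comparison 2111 genes were called, far more than the 200 changed in the simulation, so the shares recovered need not hold for it. Ratios added 1 CPM to each side and used exact permutation tests. Libraries of one group differed by more than sampling noise (chi-square per degree of freedom 3.75 to 6.61).

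The members and lists were chosen with earlier results of these data known. Named were all members, 6 fixed genes, up to 4 called genes of each list in order of adjusted p, and the 5 genes most like the inducible members. Alternatives were other scalings, DESeq2 1.42.0, limma-voom (limma 3.58.1), other count filters, a replicate block, thinning to 500402 counts, leaving out each library, and log2 of the share of reads in olfactory and vomeronasal receptor genes as a covariate. All 54100 identifiers were in GENCODE M21, which gave positions and transcripts.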

Additional observations from a re-analysis of the deposited data

How the results depend on the processing

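With RLE, library-size-only or upper-quartile scaling (the last added after seeing the data), DESeq2, limma-voom, a minimum count of 30 and thinning, the number of members called was 7, as reported. With the background covariate 869 genes were called in place of 2111, and 3 members (1 higher, 2 lower). With no count filter, where 28251 genes were tested, 4 members were called (2 lower). The median log2 fold change over the genes tested was then -0.33, against -0.025 as reported. That of Hspa1a was -0.51, against -0.59, and that of Hspe1 was 1.42, against 1.34. The cause of the lost calls was not tested. Leaving out 1 library gave 4 to 7 members called, 1 to 2 higher and 2 to 5 lower. Hspa1b changed sign, without being called, with no count filter (log2 fold change 0.054), without overloaded replicate 2 (0.0090) and without sham replicate 3 (0.11), the range on leaving out 1 library being -0.068 to 0.11. All 4 ratios kept their sign under each alternative. Hspd1 over Hspe1 ranged from -0.82 to -0.031 on leaving out 1 library.

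Deviations of same-numbered libraries from their group means correlated at 0.0082 to 0.0149, so the numbers were not taken to pair libraries. Overloaded libraries 2 and 3 correlated best with their own number (0.0144 and 0.0149), and overloaded library 1 with sham library 2 (0.0109). Differently numbered libraries correlated at -0.025 to 0.0112. With the replicate number as a block 2036 genes and 7 members were called. Blocked, Hsp90aa1 over Hsp90ab1 had an exact sign-flip p of 0.25, the smallest possible. The median SE of a log2 fold change was 0.33. Depth limited which listed genes could be tested, for example 2 of 7 other small heat shock proteins.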
